A study of Mus musculus with 6 samples.

Results

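T cell and thymocyte genes were followed in whole lung of mice that lack lincRNA-Cox2, a long noncoding RNA transcribed beside Ptgs2, the gene for the inducible cyclooxygenase. The set was chosen by symbol and holds 32 genes: the T cell receptor complex, its co-receptors and signalling proteins, surface and costimulatory molecules, lineage factors, and the thymocyte genes Rag1, Rag2, Dntt and Ptcra. Of these, 31 had a row among the 20494 rows of the authors' deposited table, and 29 could be adjusted there. Rag2 is not analysed here, and Rag1 and Ptcra had no adjusted p. The 2 groups were untreated male C57BL/6 mice of 4 months, wild type or lincRNA-Cox2 knockout, with 3 lung samples each. The table gives the mean normalized count of each group, which is a gene's count divided by a size factor for its library, and a single comparison, knockout over wild type. How the allele was made is not analysed here.

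A T cell recognises antigen through a clonal receptor made of an alpha and a beta chain, or a gamma and a delta chain. That receptor signals through the invariant CD3 chains and Cd247 to the kinases Lck and Zap70 and the adaptor Lat. Cd4 marks helper and regulatory T cells and Cd8a and Cd8b1 mark cytotoxic T cells, while Tcf7, Lef1, Bcl11b, Gata3 and Satb1 are transcription factors that set up and keep the T cell programme. Rag1 and Rag2 cut the receptor genes for rearrangement, Dntt adds bases at the joints, and Ptcra pairs with the first beta chain in the thymus, so these genes are known for developing lymphocytes rather than for resident lung T cells. Several of the genes are not exclusive to T cells: Cd2, Cd247 and Zap70 are also made by natural killer cells, Gata3 and Il7r by innate lymphoid cells, and Cd4 by some macrophages and dendritic cells. In bulk tissue, fewer cells of a type and less RNA per cell cannot be told apart.

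The labels were checked first on the targeted transcript, whose mean was 311 normalized counts in wild type and 0.666 in knockout per the authors' deposited table (adjusted p = 4.05e-91). Ptgs2, its neighbour, had means of 2929 and 298 per the authors' deposited table (adjusted p = 9.55e-11). The group means summed to 3.71e+07 normalized counts per library in wild type and 3.68e+07 in knockout, which does not give the depth of single libraries. Size factors of the 6 libraries, recovered from the means of low rows, lay between 0.961 and 1.03. Of the 10 lung identity genes listed, 10 had a row and 1 was called, and the CD3 chains, Cd247 and the co-receptors were all present, at means of 243 or more.

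The 3 CD3 chain genes lie together on chromosome 9 (mm10), and the bases upstream of their start sites are shown as a description of the locus only. Cd3g (44969572 to 44980431, minus strand) and Cd3d (44981786 to 44987339, plus strand) are transcribed away from each other from starts 1355 bp apart. Cd3e lies at 44998740 to 45009627 on the minus strand. Its RefSeq start, at 45009611, is 27825 bp from that of Cd3d. In the sequences, from RefSeq on GRCm38.p6 and written 5′ to 3′ on the strand of the gene, capitals mark TCAAAG, a core bound by the TCF and LEF factors, the letters AGATAA, bound by the family of GATA factors, or the letters TGTGGT, bound by RUNX factors. Each was searched on both strands.
Cd3g, chr9:44980432-44980681: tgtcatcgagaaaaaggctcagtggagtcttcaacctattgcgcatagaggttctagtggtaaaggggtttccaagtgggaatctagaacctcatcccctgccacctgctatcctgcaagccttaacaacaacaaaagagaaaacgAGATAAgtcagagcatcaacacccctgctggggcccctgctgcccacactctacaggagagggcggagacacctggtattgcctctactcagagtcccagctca
Cd3d, chr9:44981536-44981785: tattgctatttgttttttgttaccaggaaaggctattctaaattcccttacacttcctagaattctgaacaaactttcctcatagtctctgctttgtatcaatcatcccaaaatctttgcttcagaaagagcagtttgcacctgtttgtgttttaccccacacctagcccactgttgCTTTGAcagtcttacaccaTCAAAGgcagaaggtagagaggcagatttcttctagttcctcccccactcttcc
Cd3e, chr9:45009628-45009861: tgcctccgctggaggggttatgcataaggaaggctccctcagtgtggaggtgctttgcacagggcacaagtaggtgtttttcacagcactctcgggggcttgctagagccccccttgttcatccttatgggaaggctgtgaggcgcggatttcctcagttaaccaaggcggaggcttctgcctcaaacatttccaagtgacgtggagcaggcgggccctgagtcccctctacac
The Cd3d window held 2 TCF and LEF cores and the Cd3g window 1 GATA core, while the Cd3e window, printed without the last 16 bases that lie in an annotated exon, held no match to the 3 motifs. Among the upstream windows of 250 bases, 38 windows belonged to 25 of the set's genes. The TCF and LEF core stood in 13.2% of these against 13.8% of all 32851 windows, the GATA core in 7.89% against 9.99%, and the RUNX core in 10.5% against 14.05%. Such matches describe letters only, and the shares in the set were near those of all windows.

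Across the set, no gene passed the test between knockout and wild type, and most members had a slightly lower mean in knockout. Of the 29 members with an adjusted p, 0 were called in the authors' deposited table (DESeq2, adjusted p under 0.05), where 1.09% of all 16902 rows with an adjusted p were called, with 0.497% of rows lower and 0.592% higher. Below an unadjusted p of 0.05 stood 6 members, each of them lower in knockout, or 20.7% of the 29. In the authors' deposited table that limit was passed by 8.47% of all tested rows, with 4.04% of rows lower and 4.43% higher. The knockout mean was below the wild type mean in 22 members (75.9%), against 50.6% of all tested rows. The median log2 ratio of the members was -0.12, beside -0.0013 over all tested rows, and the ratios ran from -0.73 to 0.14. The ratio was within 0.25 of 0 on the log2 scale in 24 of the 29. Adjusted p-values of the members ran from 0.177 to 0.999 per the authors' deposited table. With a t distribution of 4 degrees of freedom in place of the normal distribution, the count at an unadjusted p under 0.05 was 1 member (Cd2) in place of 6. The members were proposed with an earlier description of these data in view, so these counts are a description and not independent evidence of a direction.

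**Figure D1:**
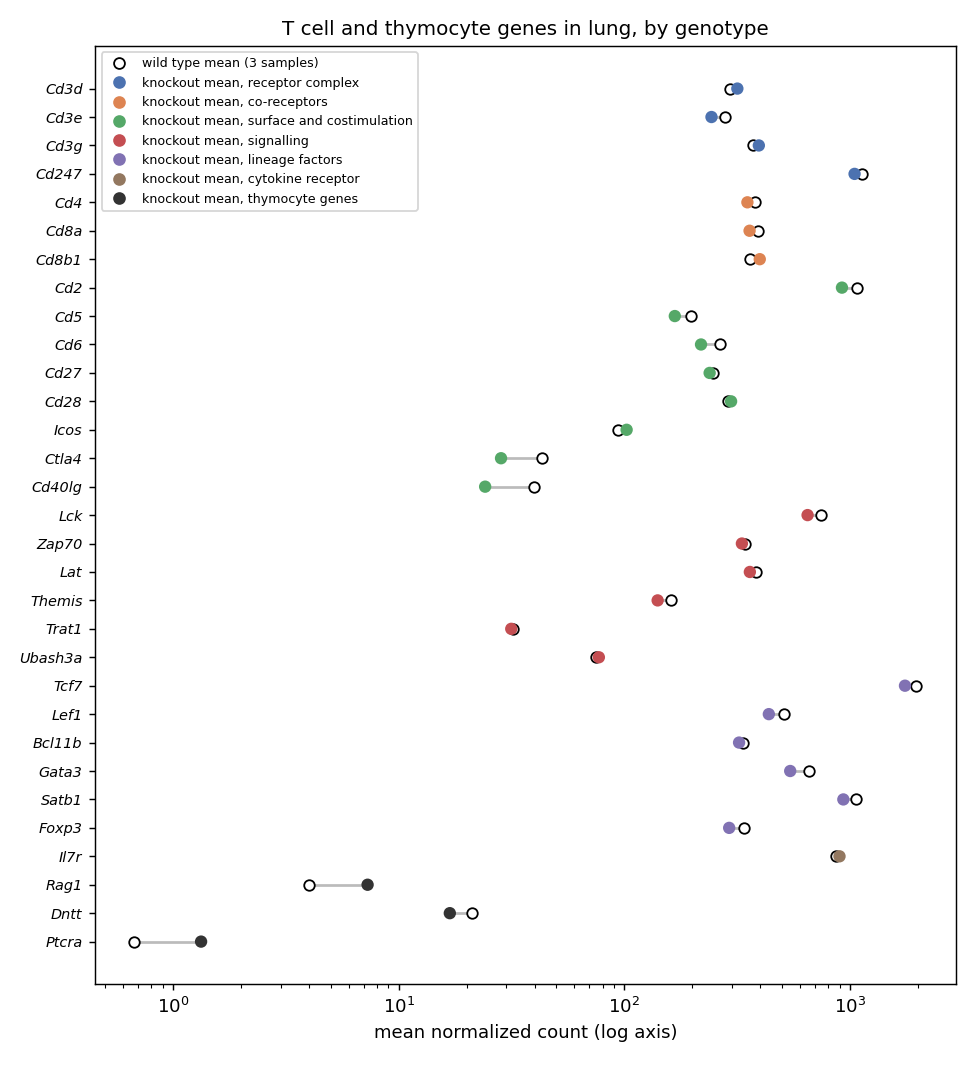
Mean normalized count (log axis) of the 31 members with a row, in wild type (open points) and knockout (filled points, coloured by role), each a mean of 3 samples. The pairs lie close together for most genes, from Tcf7 at the top of the range to Ptcra at about 1 normalized count; the widest gaps among tested genes are those of Cd40lg and Ctla4.

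Levels between genes were compared only after division by exon length. In wild type, Tcf7 stood highest at 748 normalized counts per kb of exon, followed by Cd2 (615), which encodes an adhesion molecule not exclusive to T cells. Lck, the kinase that starts receptor signalling, was at 252 per kb and Cd8b1 at 244 per kb in wild type. Dntt was at 9.27 per kb, and Trat1 and Ubash3a, both regulators of receptor signalling, were below it at 6.89 and 6.64 per kb. Lower still, Rag1 was at 0.609 and Ptcra at 0.526 per kb in wild type, the lowest of all members with a row. The order of close neighbours cannot be read, since the table has no spread between samples for most of these genes and the transcript models behind the counts are not known here.

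In the receptor complex the differences had both signs and none passed the test. Cd3e had the lower mean in knockout, at 279 against 243 normalized counts (shrunken log2 fold change, which pulls imprecise values towards 0, of -0.12 ± 0.084 (SE) and adjusted p = 0.844, per the authors' deposited table). Cd3d and Cd3g, its neighbours on chromosome 9, had higher means in knockout, but these differences were smaller than their own errors. For Cd3d the means were 293 and 316 (shrunken log2 value 0.06 ± 0.083, adjusted p = 0.980), per the authors' deposited table. For Cd3g they were 373 and 394 (0.05 ± 0.079, adjusted p = 0.987), again per the authors' deposited table. The per-kb ratio of Cd3e to Cd3d was 0.423 in wild type and 0.342 in knockout, and that between Cd3g and Cd3d was 0.706 and 0.691. Differences between these genes were not tested, since the table gives no libraries for them.

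Cd247, the zeta chain that carries most of the signalling motifs of the receptor, lies on chromosome 1 (165788681 to 165877277, plus strand), 15.6 Mb from lincRNA-Cox2. Its means were 1126 and 1046 normalized counts (shrunken log2 value -0.09 ± 0.063, adjusted p = 0.833, per the authors' deposited table). Of its 5329 exonic bases, 3007 overlap exons of Pou2f1 on the opposite strand. The library kit named in the labels does not mark strand, so reads there cannot be assigned to Cd247 alone. The level of Cd247, and its difference, are therefore uncertain.

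Co-receptor means differed by about 1 standard error or less. Cd4 had means of 380 and 351 (adjusted p = 0.932) and Cd8a of 389 and 358 (adjusted p = 0.966) per the authors' deposited table, so that the per-kb ratio of Cd4 to Cd8a was 0.883 in wild type and 0.882 in knockout. Cd8b1, the partner chain of Cd8a, was on the other side of 0, at 362 and 398 (adjusted p = 0.970) per the authors' deposited table. The shrunken values of Cd8a and Cd8b1 were smaller than their standard errors, and that of Cd4 was just past it (-0.08 ± 0.078 per the authors' deposited table).

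Surface and costimulatory genes held the smallest p-value of the set and, among the 29 members with an adjusted p, the log2 ratios farthest from 0. Cd2 had means of 1070 and 920 normalized counts, 1.16-fold lower in knockout, with a shrunken log2 value of -0.18 ± 0.063 (unadjusted p = 0.00423, adjusted p = 0.177 per the authors' deposited table). Cd5 and Cd6, neighbouring scavenger-receptor genes on chromosome 19 that dampen receptor signals, were 1.18-fold and 1.21-fold lower (adjusted p = 0.780 and 0.677 per the authors' deposited table). Cd27, a costimulatory receptor of the tumour necrosis factor family, had means of 246 and 239 (adjusted p = 0.997) per the authors' deposited table. Of the 8 genes in this group 6 had a lower knockout mean, with a median log2 ratio of -0.23, and 0 were called.

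Cd28, Ctla4 and Icos form a cluster of related receptors on chromosome 1, about 89 Mb from lincRNA-Cox2, and their differences had both signs. Cd28, the main costimulatory receptor, had means of 288 and 297 per the authors' deposited table (adjusted p = 0.997). Icos, a costimulator of helper and regulatory T cells, had 93.5 and 102 (adjusted p = 0.994) there, per the authors' deposited table. Ctla4, the inhibitory counterpart of Cd28, had 43.3 and 28.4, with a log2 ratio of -0.61 and an adjusted p of 0.737 per the authors' deposited table.

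For low genes, whole reads of each library could be recovered from the group means, and the libraries are called A, B and C within a genotype because they carry no replicate number. This was possible for 6 members. Ctla4 had 56, 47 and 27 reads in wild type libraries A, B and C and 27, 33 and 26 in the knockout libraries. The groups overlapped, since wild type library C was at the level of the knockout. Without that library the log2 ratio was -0.84 and without wild type library A it was -0.40 (all libraries, exact 2-sided permutation p = 0.2, where 3 against 3 cannot go below 0.1).

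Cd40lg, the ligand through which helper T cells activate B cells and dendritic cells, had 34, 43 and 42 reads in wild type and 22, 26 and 25 in knockout. Every knockout library was below every wild type library. Normalized means were 39.96 ± 5.64 (SD, n = 3) and 24.2 ± 2.35, a ratio of 0.605 with an exact 95% interval of 0.446 to 0.817 from counting error alone (exact permutation p = 0.1, the smallest this design allows). The authors' deposited table gives a shrunken log2 value of -0.14 ± 0.067, an unadjusted p of 0.0406 and an adjusted p of 0.547. Leaving out any single library kept the log2 ratio between -0.84 and -0.65. Among 1675 rows with a mean of 10 to 40, the 2 groups did not overlap in 16.2%, or in 8.84% with the knockout lower, and they did not overlap in 1 of the 4 members of that range.

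Trat1, an adaptor that stabilises the receptor complex, had 39, 26 and 31 reads in wild type and 20, 37 and 38 in knockout. Its means were nearly equal, at 32.2 ± 6.28 and 31.5 ± 10.5 (SD, n = 3), with a ratio of 0.981 (counting interval 0.728 to 1.31). The lowest of the 6 was knockout library A. The sign rests on single libraries: the log2 ratio was -0.03 with all of them, 0.22 without knockout library A and 0.12 without wild type library A.

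**Figure D2:**
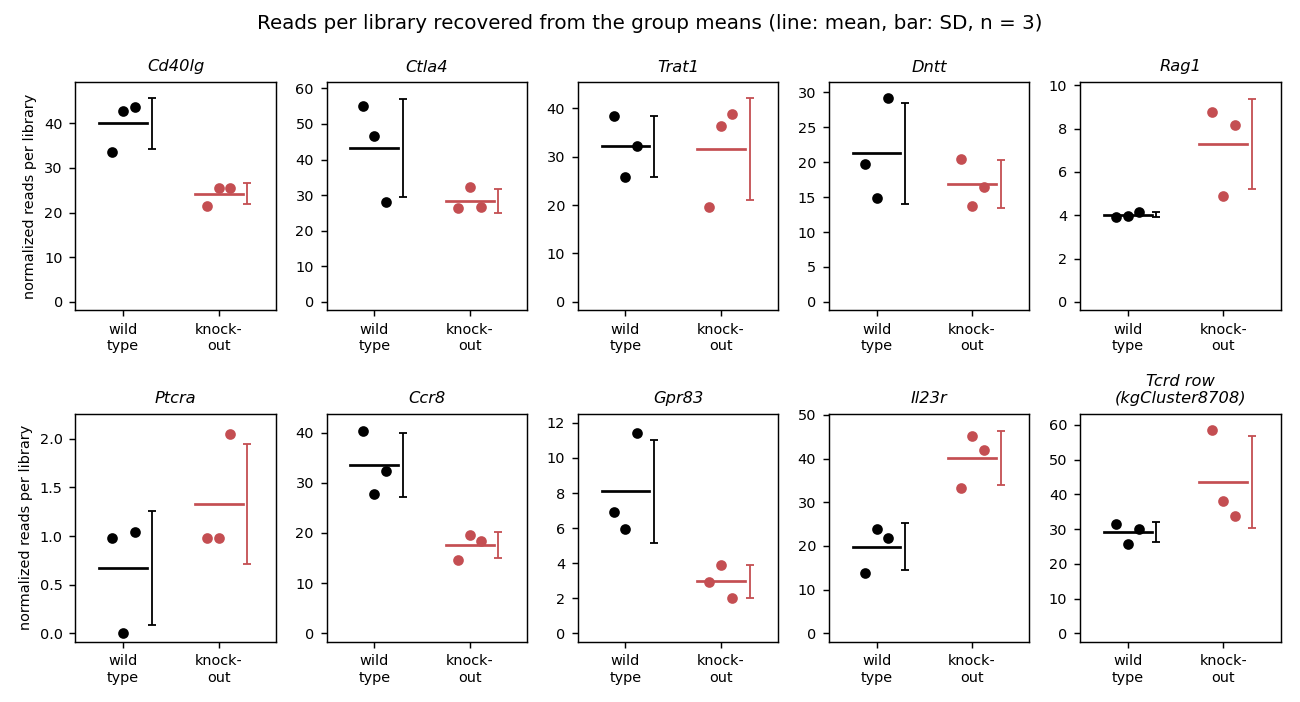
Normalized reads in each library for the 6 members whose reads could be recovered and for 4 further rows, with the mean (line) and SD (bar) of 3 wild type (black) and 3 knockout (red) libraries; each panel has its own linear axis. Groups do not overlap for Cd40lg, Rag1, Ccr8, Gpr83, Il23r and the Tcrd row, and they do for Ctla4, Trat1, Dntt and Ptcra. Over all rows with reads recovered, groups do not overlap in 16.2% at a mean of 10 to 40 and in 13.1% at 1 to 10.

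Among signalling genes below the receptor, most knockout means were lower by small amounts. Lck had means of 739 and 648 normalized counts, 1.14-fold lower in knockout (shrunken log2 value -0.15 ± 0.072, unadjusted p = 0.0434, adjusted p = 0.560 per the authors' deposited table). Zap70, the kinase recruited to the phosphorylated receptor, had 344 and 331 (adjusted p = 0.997) per the authors' deposited table. Lat, the membrane scaffold that Zap70 phosphorylates, had 382 and 359 (adjusted p = 0.984) per the authors' deposited table. The difference of Lck was just over 2 standard errors and those of Zap70 and Lat were under 1. Themis, a regulator of thymocyte selection, had 161 and 140 (adjusted p = 0.936), and Ubash3a, a phosphatase-like inhibitor of receptor signalling, had 74.6 and 77.1 (adjusted p = 0.997) per the authors' deposited table. Of these 6 genes 5 had a lower knockout mean, with a median log2 ratio of -0.07 and 0 called.

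Lineage factors were the group in which all 6 members had a lower knockout mean, with a median log2 ratio of -0.20, and 0 of the 6 were called. Gata3, a factor of helper T cells and innate lymphoid cells, had means of 658 and 543 normalized counts, 1.21-fold lower (shrunken log2 value -0.20 ± 0.075, unadjusted p = 0.0071, adjusted p = 0.237 per the authors' deposited table). Tcf7, which encodes the factor TCF-1 of naive and memory T cells, had 1965 and 1749, 1.12-fold lower (-0.15 ± 0.056, unadjusted p = 0.00945, adjusted p = 0.279 per the authors' deposited table). Satb1, a chromatin organiser of thymocytes and T cells, had 1063 and 933 (-0.15 ± 0.069, unadjusted p = 0.0291, adjusted p = 0.489 per the authors' deposited table). Of the factors, these 3 were past an unadjusted p of 0.05 and not past the adjusted threshold.

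Lef1, the close relative of Tcf7, had 508 and 436 (-0.15 ± 0.078, adjusted p = 0.595 per the authors' deposited table), and 1208 of its exonic bases overlap the antisense gene Gm43352. Foxp3, the factor that defines regulatory T cells, had 337 and 291 (-0.14 ± 0.081, adjusted p = 0.730 per the authors' deposited table), and 853 of its exonic bases overlap Flicr. Bcl11b, which holds cells in the T lineage, was nearly level at 334 and 322 (adjusted p = 0.997 per the authors' deposited table). Il7r, the receptor chain through which naive T cells and innate lymphoid cells survive, had 867.7 and 896.9 (adjusted p = 0.997 per the authors' deposited table) and its difference had the opposite sign to those of the lineage factors.

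**Figure D3:**
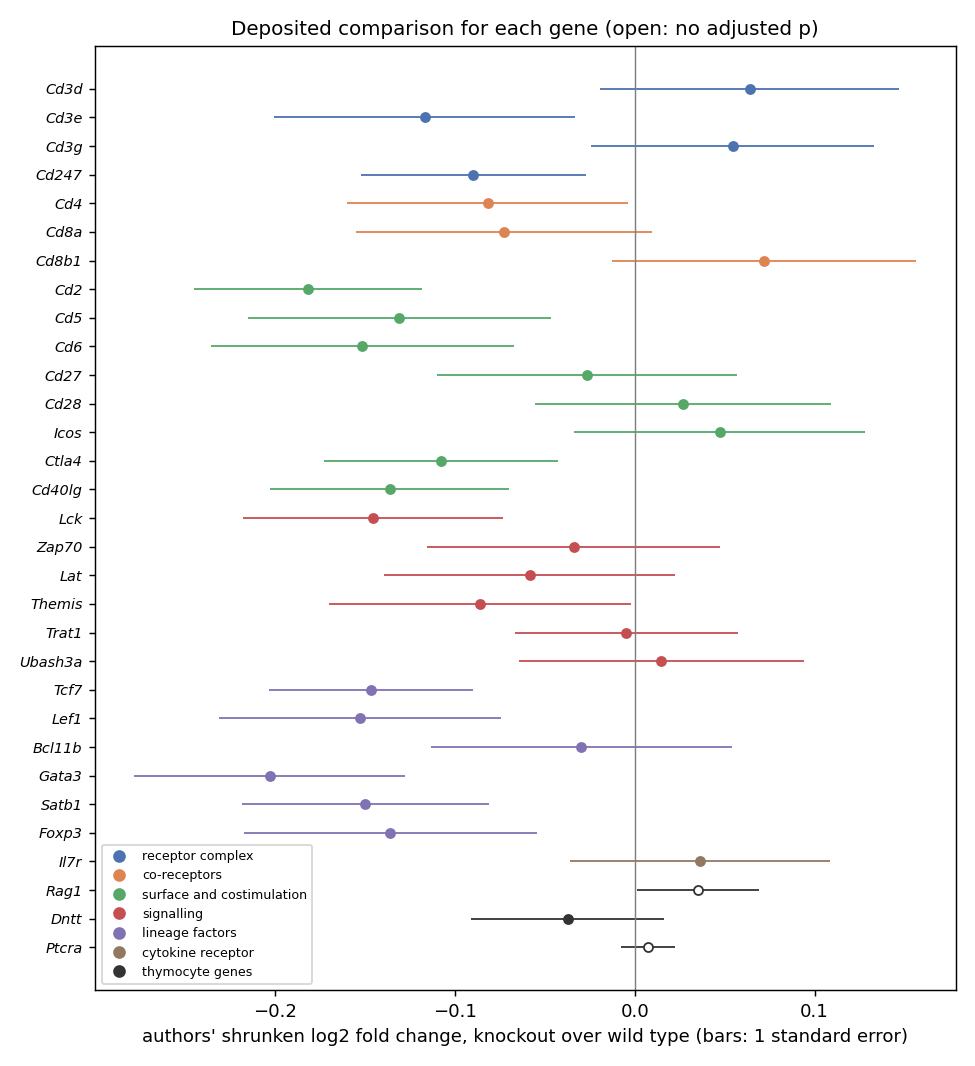
Shrunken log2 difference between knockout and wild type for each member, as deposited by the authors, with bars of 1 standard error and colours by role; open points had no adjusted p. Most points lie to the left of 0, from -0.20 for Gata3 and -0.18 for Cd2, while Cd3d, Cd3g, Cd8b1, Icos, Il7r and a few others lie to the right.

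Thymocyte genes had few reads, and their differences had both signs. Dntt, the template-independent polymerase, was the highest, with 20, 15 and 28 reads in wild type and 21, 14 and 16 in knockout. The groups overlapped, at 21.2 ± 7.24 and 16.9 ± 3.41 normalized reads (SD, n = 3; exact permutation p = 0.5), and the authors' deposited table gives an adjusted p of 0.987. Its log2 ratio was -0.33 with all libraries and -0.037 without wild type library C. Rag1, the recombinase subunit, had 4, 4 and 4 reads in wild type and 9, 5 and 8 in knockout. The Rag1 groups did not overlap, yet the ratio of 1.81 had a counting interval of 0.857 to 4.01 (exact permutation p = 0.1, the smallest possible, and unadjusted p = 0.303 per the authors' deposited table). Among 2651 rows with a mean of 1 to 10, the groups did not overlap in 13.1%. Ptcra had 1, 0 and 1 reads in wild type and 1, 1 and 2 in knockout, a ratio of 1.98 with a counting interval of 0.283 to 21.8. Summed over the 3 genes there were 25, 19 and 33 reads in wild type and 31, 20 and 26 in knockout, nearly the same total in each group. The log2 ratio of that sum was -0.03, and it was 0.23 without wild type library C and 0.13 without knockout library B.

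B cell precursors use Rag1 and Dntt as well. Of 9 genes listed for them, 3 of which are members of the T cell set, 4 could be tested, all 4 with a lower knockout mean and 0 called. The tested genes include the member Dntt, and Ebf1, named after its values were seen, which is also in the B cell list. Cd93 had means of 24171 and 20728 (adjusted p = 0.347 per the authors' deposited table). It made up most of the list's summed 25465 and 21966 normalized counts, so the shared sign does not describe B cell precursors alone. Vpreb1, part of the surrogate light chain, had 12, 17 and 14 reads in wild type and 11, 6 and 6 in knockout, and Igll1, its partner, had 3, 4 and 3 against 3, 2 and 4. Among markers of thymic epithelium, Aire had 5, 3 and 3 reads in wild type and 2, 6 and 4 in knockout, and Prss16 had 13, 7 and 14 against 10, 11 and 9. These 4 genes were chosen after their values were seen. Of the 14 thymic epithelium genes 12 had a row, with a summed level of 10771 normalized counts in wild type and 10967 in knockout, and 0 of the 8 tested were called. Ctsl, at 7497 and 7659, made up most of that sum, so the sum does not describe thymic epithelium alone. Ly75 was higher and Cd83 lower at an unadjusted p under 0.05 (adjusted p = 0.0833 and 0.443 per the authors' deposited table). Low genes of the list differed in both directions. Krt14 had 1, 1 and 1 reads in wild type and 3, 16 and 6 in knockout. Krt5 had 27, 52 and 38 against 10, 39 and 0, and Pax1 had 4, 8 and 1 against 0, 3 and 1. Ctsl, Krt14, Krt5 and Pax1 were also chosen after their values were seen. The defining genes Foxn1 and Psmb11 are not analysed here. The part of these cells in the Rag1, Dntt and Ptcra reads was not tested.

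Rows for the receptor genes themselves, which the choice of members did not use, had higher knockout means for gamma and delta chains and no shared sign for alpha and beta chains. The table holds 64 rows named for alpha or beta chains, of which 12 had an adjusted p, and 11 named for gamma or delta chains, of which 6 had one. Alpha and beta rows had a median log2 ratio of -0.04, with 7 of 12 lower in knockout and 0 past an unadjusted p of 0.05. Gamma and delta rows had a median of 0.49, with 6 of 6 higher and 3 past an unadjusted p of 0.05, but 0 were called. These are few rows, and some gamma constant regions are near-identical copies between which reads can be split. Rows of a chain also share cells, so they are not independent of each other. The difference between the chains was not tested.

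The largest alpha chain row, Tcra, was level at 253 and 250 normalized counts (adjusted p = 0.997 per the authors' deposited table). Tcrg-C3, a gamma chain row, had 82.4 and 124 (log2 ratio 0.59, unadjusted p = 0.00981, adjusted p = 0.286 per the authors' deposited table). Tcrg (kgCluster6710) had 67.9 and 95.3 (unadjusted p = 0.0298, adjusted p = 0.490), and Tcrd (kgCluster8710) had 103 and 144 (unadjusted p = 0.0419, adjusted p = 0.553), both per the authors' deposited table. A further Tcrd row (kgCluster8708) had 32, 26 and 29 reads in wild type libraries and 60, 39 and 33 in knockout libraries. Its groups did not overlap, and most of the distance came from knockout library A (exact permutation p = 0.1). Such a lack of overlap was seen in 16.2% of all rows with a mean of 10 to 40. Summed over the 59 alpha and beta rows whose reads could be recovered, wild type libraries had 403, 338 and 344 reads and knockout libraries 292, 375 and 373, so that knockout library A was low and the other 2 lay within the wild type range. The log2 ratio of this sum was -0.08 with all libraries and 0.043 without knockout library A. The 43 alpha rows recovered had 130, 115 and 111 reads in wild type and 94, 107 and 98 in knockout. Each knockout library was thus below each wild type library (ratio 0.830, counting interval 0.708 to 0.969, exact permutation p = 0.1, the smallest this design allows). The share of rows without overlap was not counted at the level of this sum, so the lack of overlap has no share over all rows beside it. These low rows held only 119 of the 499 normalized counts of all 45 alpha rows in wild type. The sum over all 45 was 499 in wild type and 478 in knockout, a ratio of 0.958. The 16 beta rows recovered had a ratio of 1.01, and the sum over all 64 alpha and beta rows had a ratio of 0.963. Over the 7 gamma and delta rows recovered, the reads were 100, 81 and 81 in wild type and 121, 104 and 94 in knockout, with library A the highest of its group in both genotypes. That log2 ratio was 0.26, and it ran from 0.17 to 0.36 when single libraries were left out. By chain, the 2 gamma rows among them had a ratio of 1.06, with Tcrg-C at 47, 42 and 32 reads in wild type and 40, 42 and 43 in knockout, and the 5 delta rows had a ratio of 1.34.

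Genes known from gamma-delta and innate-like T cells differed in both directions. In that list 10 of 11 genes could be tested, and the median log2 ratio was -0.12, 6 lower and 4 higher. Zbtb16, the factor of innate-like T cells, was called lower, at 2148 against 1285 normalized counts (adjusted p = 1.55e-05 per the authors' deposited table). Sox13, a gamma-delta lineage factor, was 1.19-fold lower (adjusted p = 0.0853 per the authors' deposited table). Cd163l1, a scavenger receptor of gamma-delta T cells, was higher, at 102 and 174 (adjusted p = 0.140 per the authors' deposited table). Il23r, the receptor that sustains such cells and a gene named here after its values were seen, had 14, 24 and 21 reads in wild type and 34, 46 and 41 in knockout, with no overlap and a ratio of 2.02 (adjusted p = 0.271 per the authors' deposited table). Among all rows with a mean of 10 to 40, the groups did not overlap in 16.2%. Zbtb16 and Sox13 are not exclusive to T cells.

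Other genes of receptor signalling centred on 0. All 32 genes of that list, among them Fyn, Lcp2 and Vav1, could be tested, and the median log2 ratio was 0.0031, 15 lower and 17 higher, and 0 called. The gene at an unadjusted p under 0.05 was Ptprc, which encodes the phosphatase CD45 of all leucocytes, at 8778 and 9521 normalized counts (adjusted p = 0.573 per the authors' deposited table). Many genes of this list are made by other leucocytes too.

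Among 49 further T cell genes 0 were called, with 7 lower and 4 higher at an unadjusted p under 0.05 and a median log2 ratio of -0.02. Over all tested rows 4.04% were lower and 4.43% higher at that limit. Rora, a factor of helper and innate lymphoid cells, and Cxcr6, a chemokine receptor of tissue-resident T cells, were 1.15-fold and 1.36-fold higher (adjusted p = 0.0845 and 0.108 per the authors' deposited table). Havcr2, an inhibitory receptor also found on myeloid cells, was 1.22-fold higher (adjusted p = 0.131 per the authors' deposited table). Ccr7, the lymph node homing receptor of naive T cells, was 1.19-fold lower (adjusted p = 0.410 per the authors' deposited table). Ccr7 was chosen after its values were seen.

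Regulatory T cell genes beside Foxp3 and Ctla4 differed in both directions. Of 10 tested genes of that list 2 had a lower and 8 a higher knockout mean, with a median log2 ratio of 0.11 and 0 called. The 2 lower genes, Lrrc32 and Ccr8, were under an unadjusted p of 0.05, and 0 of the higher ones were. Lrrc32, which encodes the surface carrier of latent TGF-beta and is not exclusive to T cells, had means of 3676 and 2980 (unadjusted p = 0.0188, adjusted p = 0.400 per the authors' deposited table). Ccr8, a chemokine receptor of activated regulatory T cells, had 41, 28 and 31 reads in wild type and 15, 20 and 18 in knockout, a ratio of 0.524 (counting interval 0.368 to 0.737; adjusted p = 0.426 per the authors' deposited table). Gpr83, a receptor gene linked to Foxp3, had 7, 6 and 11 reads against 3, 4 and 2. Groups did not overlap for either gene, and Gpr83 had no adjusted p. Among all rows with a mean of 10 to 40, the range of Ccr8, the groups did not overlap in 16.2%. For a mean of 1 to 10, the range of Gpr83, the share was 13.1%. Il2ra, the high-affinity receptor chain for Il2, and Ikzf2, which encodes Helios, were 1.19-fold and 1.07-fold higher (adjusted p = 0.887 and 0.971 per the authors' deposited table). Gpr83, Il2ra and Ikzf2 were chosen after their values were seen.

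Genes of thymocyte stages beyond the members held 1 called gene. Of 24 tested genes of that list 19 had a lower knockout mean, with a median log2 ratio of -0.08, and 7 were under an unadjusted p of 0.05, all lower. Over all tested rows 50.6% had a lower knockout mean, 4.04% were lower at that limit and 1.09% were called. Hes1, a target of Notch signalling that many lung cells express, fell from 4073 to 2933 normalized counts (adjusted p = 0.000104 per the authors' deposited table). Cd38, a surface enzyme shared by many leucocytes, was 1.26-fold lower, and Tox2, a relative of the thymocyte factor Tox, was 1.27-fold lower (adjusted p = 0.0716 and 0.198 per the authors' deposited table). Cytokine genes of T cells had 9 of 16 tested and 0 called, with 0 under an unadjusted p of 0.05 and a median log2 ratio of -0.01. Cell cycle genes had a median of -0.01 over 20 genes, with 0 called and Mcm6, a part of the replicative helicase, 1.28-fold lower (adjusted p = 0.193 per the authors' deposited table).

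Markers of other cells were measured beside the T cell genes. B cell markers were lower in 15 of 16 genes, with a median log2 ratio of -0.13, a summed level of 16665 and 15216 normalized counts in wild type and knockout, and 0 called, against 6 at an unadjusted p under 0.05, all lower. Natural killer markers had a median of -0.02 over 15 genes, with summed levels of 4878 and 5008 and 0 at an unadjusted p under 0.05. Type 2 innate lymphoid markers, of which 3 are members of the T cell set, had a median of 0.02 over 12 genes and summed levels of 6642 and 7032. General leucocyte genes had a median of 0.06 over 10 genes, 7 of them higher, with summed levels of 56062 and 58412. Neutrophil markers were higher in 9 of 10 genes, 6 of them called, with a median of 0.65 and summed levels of 11856 and 15799. Red cell markers had 4 of 8 genes with a row, all higher, with a median of 0.23 and summed levels of 32013 and 35913. No gene with a row in these lists was at 0 in either group. Markers of the other cells that make Cd4 had a median of -0.0036 over 8 genes, with summed levels of 17333 and 17295. Lymph node stroma markers had a median of -0.0074 over 6 genes, and Cxcl13, a chemokine of B cell follicles, had means of 146 and 227 (adjusted p = 0.0739 per the authors' deposited table). Immediate early genes, which respond within minutes to handling and to stimulation, were lower in 13 of 14, 5 of them called, with a median of -0.85. Over all tested rows, 50.6% had a lower knockout mean, 4.04% were lower at an unadjusted p under 0.05 and 1.09% were called. The part of any of these cells, of blood in the tissue or of tissue handling in the T cell values was not tested.

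**Figure D4:**
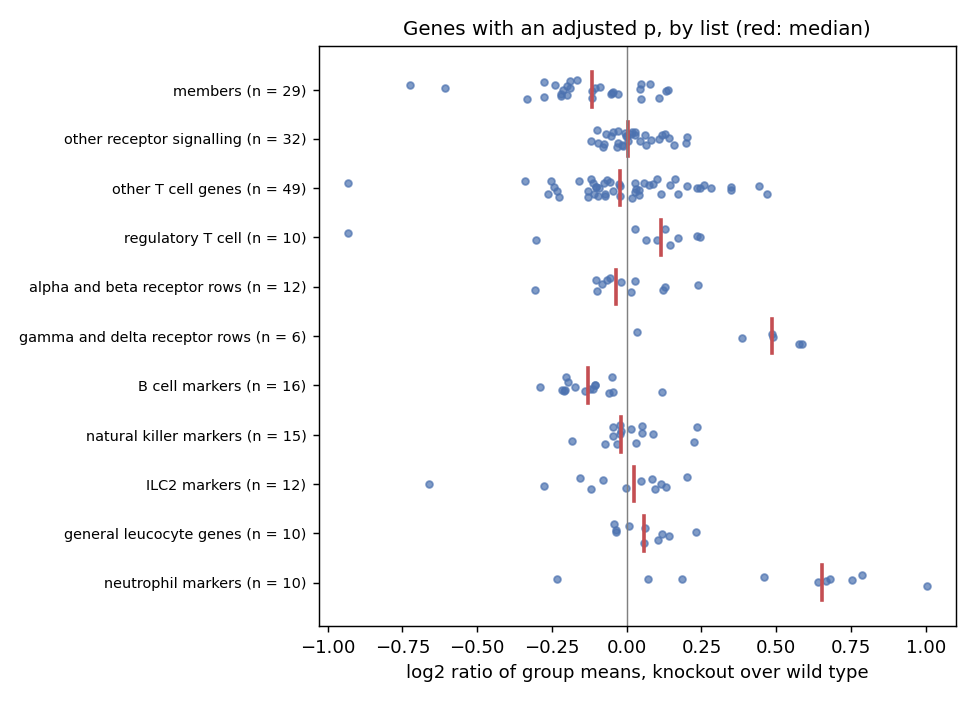
Log2 ratio of group means, knockout over wild type, for each gene or row with an adjusted p, by list, with the median in red. Members of the T cell set centre on -0.12 and B cell markers on -0.13, natural killer markers on -0.02, gamma and delta receptor rows on 0.49 and neutrophil markers on 0.65.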

How the data were processed

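Whole lung RNA of 3 wild type and 3 knockout samples was sequenced as 50 bp paired ends from 500 ng of RNA with the TruSeq kit v2 on a HiSeq2500, and the mean RNA integrity number was 9.45 (9.0 to 10.0), per the labels' protocols. Tools listed, without roles, are DESeq2, STAR 2.5.1b, Bowtie2, bedtools and SAMtools, with the build mm10, per the submitters' processing notes. How reads were counted, and whether by strand, is not given in the sources used here. The authors deposited group means as a signal in normalized counts (each count over its library's size factor), per the file headers. They also deposited a shrunken log2 fold change with its standard error, a Wald score and a p-value before and after adjustment, per the file headers. The depth of each library is not given.

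Here, genes were matched by symbol, located with GENCODE M21 (the build of the files), and called at the authors' adjusted p under 0.05. Ratios are of the authors' means unless called shrunken. Reads per library were recovered where exactly 1 set of whole reads gave both printed means, which held for every mean between 0 and 40 (4901 in wild type, 4877 in knockout). The procedure was tested on simulated data. Exact permutation tests and exact binomial intervals (counting error only; reads carry no molecular identifiers) used scipy 1.17.1. The labels do not say whether the samples of a group came from separate animals, so p-values measure only the spread between these samples, which may be technical. All 32 members are named, with up to 4 genes per other list, called ones first and then by unadjusted p, and the rows of receptor genes named Tcr; genes outside this rule are marked, and some genes it selects are not reported here. The members and lists were chosen with earlier results of these data known. Alternatives covered the adjustment, threshold, reference distribution, scaling, pseudocount, choice of members and libraries; recounts of receptor rows were added after seeing the data.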

Additional observations from a re-analysis of the deposited data

How the results depend on the processing

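The count of called members was 0 in the 4 alternatives tried (adjustment over all rows with a p, a mean of at least 50, an adjusted p under 0.1, and a t distribution), and the lowest adjusted p of a member ran from 0.166 to 1.0. With a t distribution of 4 degrees of freedom, 1 member (Cd2) in place of 6 was under an unadjusted p of 0.05. The median log2 ratio of the members ran from -0.18, without genes on chromosome 1, to -0.08 with shrunken values. Shrunken values moved the surface and costimulation median from -0.23 to -0.12 and Dntt from -0.33 to -0.037, and a pseudocount of 10 moved Dntt to -0.22. Leaving out single libraries turned the sign of the thymocyte sum (-0.03, range -0.21 to 0.23), of Trat1 (-0.03, range -0.21 to 0.22) and of the alpha and beta receptor rows (-0.08, range -0.16 to 0.043, positive without knockout library A). The cause was not tested. Of the other comparisons of settings, 83 kept their sign and side or stayed within the error. edgeR and fits without single libraries on the whole table were not run, because reads could not be recovered for rows with higher means. The 3 thymocyte genes with a row had at most 33 reads together in a library, which limits the precision of their ratios. No paired analysis was possible because the labels number no replicates and neither the deposited means nor the recovered libraries can be tied to single samples.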
